A study of Mus musculus with 41 samples.

Results

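The locus described here is the imprinted Meg3 and Rian region of mouse chromosome 12, taken as the window chr12:110680001-111050000 of build mm9, 370 kb long. Its named genes are the noncoding Meg3, Rian and Mirg and the protein-coding Dlk1 upstream of them. The window was chosen by a measured value: the widest H4K20me1 region of 1 list, LSD1n WT after 1 h of KCl (replicate 1), lies in it. The width of that region, and all that follows from it, is therefore a description and no finding. That region was 102.573 kb wide, and the next widest of the same list was 101.387 kb. Of 488881 peaks in 27 deposited lists, 146 lay in the window, and 23 of the lists had at least 1 there.

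Imprinted genes are read from the copy inherited from 1 parent alone. In the Dlk1-Meg3 domain, Dlk1, which encodes a membrane protein of the Notch ligand family, is expressed from the paternal copy. Meg3, a long noncoding RNA, Rian, a host of small nucleolar RNAs, and Mirg, a host of microRNAs, are expressed from the maternal copy, and neurons are a main site of their expression. H4K20me1, a single methyl group on lysine 20 of histone H4, and H3K36me3 are marks often found over transcribed gene bodies, while H3K4me1 and H3K4me2 mark enhancers and promoters. LSD1 is a lysine demethylase, and LSD1n is its neuronal splice form.

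The samples are primary mouse cortical neurons at 10 days in vitro, kept in a 55 mM KCl bath, which depolarizes neurons, for 0 h (at rest) or 1 h. Chromatin immunoprecipitation with sequencing was done for H4K20me1, H3K36me3, H3K4me1 and Pol II in LSD1n WT and LSD1n KO neurons at both times, and for H3K4me2 in LSD1n WT at both times. An LSD1 antibody was used in wild type neurons at both times, in LSD1n WT at 0 h, and in LSD1n KO with no time given. A Flag antibody (M2) was used in R26/LSD1n and R26/LSD1c neurons at both times, for the neuronal and the canonical form. The labels do not give the ages or number of the animals, the Cre or promoter behind the alleles, or whether cultures were pooled. The other 14 samples, which measure RNA, are not analysed here, so neither transcription nor the loss of LSD1n was checked, nor was the cell type checked by its markers. Each group is 1 library, except H4K20me1 in WT at 1 h with 2, so no difference between groups was tested, and the other differences have no replicate check. Total tags ran from 6990017 to 34859557 per library.

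The files use mm9, and no mm9 annotation was used, so no peak below is assigned to an exon, intron or gene. RefSeq's tables on build GRCm38.p6 matched all 4 genes by symbol and place them in the order Dlk1, Meg3, Rian, Mirg on the plus strand. Their positions cannot be set against mm9 positions. The promoter of the Meg3 RNA is shown because Meg3 opens the maternal transcripts of the locus and the neurons were depolarized. The capitals mark TGACGTCA, the full cAMP response element, which the activity-regulated factor CREB is known to bind. It is the stretch chr12:109540746-109541045 (GRCm38.p6, plus strand), 300 bases around the first of 2 listed Meg3 starts:

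Meg3 promoter: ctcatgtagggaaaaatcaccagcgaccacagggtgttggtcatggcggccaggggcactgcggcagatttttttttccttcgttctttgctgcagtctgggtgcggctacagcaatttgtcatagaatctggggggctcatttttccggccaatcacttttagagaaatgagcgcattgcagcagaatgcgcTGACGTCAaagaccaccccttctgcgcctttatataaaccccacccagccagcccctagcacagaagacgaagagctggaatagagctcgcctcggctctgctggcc

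The motif begins 57 bases before the start. Searched on both strands, TGACGTCA was in 588 of 32851 RefSeq promoters of the same length (1.79%), and in none of the other 4 entries of the locus (Dlk1, the second Meg3 start, Rian and Mirg). The Meg3 promoter also held CCAAT, which 37.4% of promoters hold, and TATAAA, which 13.6% hold. These are matches of letters and not measured sites.

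RefSeq lists 57 microRNA genes between the start of Meg3 and the end of Mirg, with 10 inside the Mirg gene model, 3 inside Rian and 1 inside Meg3. Of the 111 mature names, 9 seeds (bases 2 to 8, in capitals) were shared by names from different genes. Only microRNAs between the start of Meg3 and the end of Mirg were compared, so seeds shared with other microRNAs were not counted. Shown as examples are the pair within Mirg, a pair outside the Meg3, Rian and Mirg gene models, and a pair with 1 member outside them and 1 in Mirg:

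mmu-miR-453: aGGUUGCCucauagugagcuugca

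mmu-miR-496a-5p: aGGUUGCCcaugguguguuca

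mmu-miR-379-3p: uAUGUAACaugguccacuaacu

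mmu-miR-411-3p: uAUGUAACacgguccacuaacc

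mmu-miR-494-5p: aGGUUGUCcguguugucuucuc

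mmu-miR-410-5p: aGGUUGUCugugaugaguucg

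No microRNA was measured in the lists used here.

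H4K20me1 formed 1 block over the middle of the window. At rest it covered 192.977 kb of the window in WT (52.2%), in 13 regions. In KO at rest it covered 207.566 kb (56.1%), in 2 regions. After 1 h of KCl, WT replicate 1 had 203.36 kb (55.0%) in 3 regions. WT replicate 2 had 20.099 kb (5.43%) in 15 regions, and KO had 116.262 kb (31.4%) in 36 regions. The domain was therefore nearly filled in 3 of the 5 libraries, KO at 1 h was broken into pieces, and WT replicate 2 at 1 h held fragments.

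The edges of the block were nearly the same in all genotypes and times. The first H4K20me1 region started at 110781524 in WT at 0 h, 110780514 in KO at 0 h, 110781640 and 110781352 in WT at 1 h (replicates 1 and 2), and 110781466 in KO at 1 h. These 5 starts lay within 1126 bp. The last region ended at 110989580 in WT at 0 h, 110989145 in KO at 0 h, 110987308 in WT replicate 1 and 110986588 in KO at 1 h, within 2992 bp. WT replicate 2 was the exception, with its last end at 110949820. From the earliest start to the latest end the domain was 209.067 kb long, 56.5% of the window. The nearest H4K20me1 regions outside were 487 to 935 kb before the domain and 697 to 852 kb after it.

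**Figure D1:**
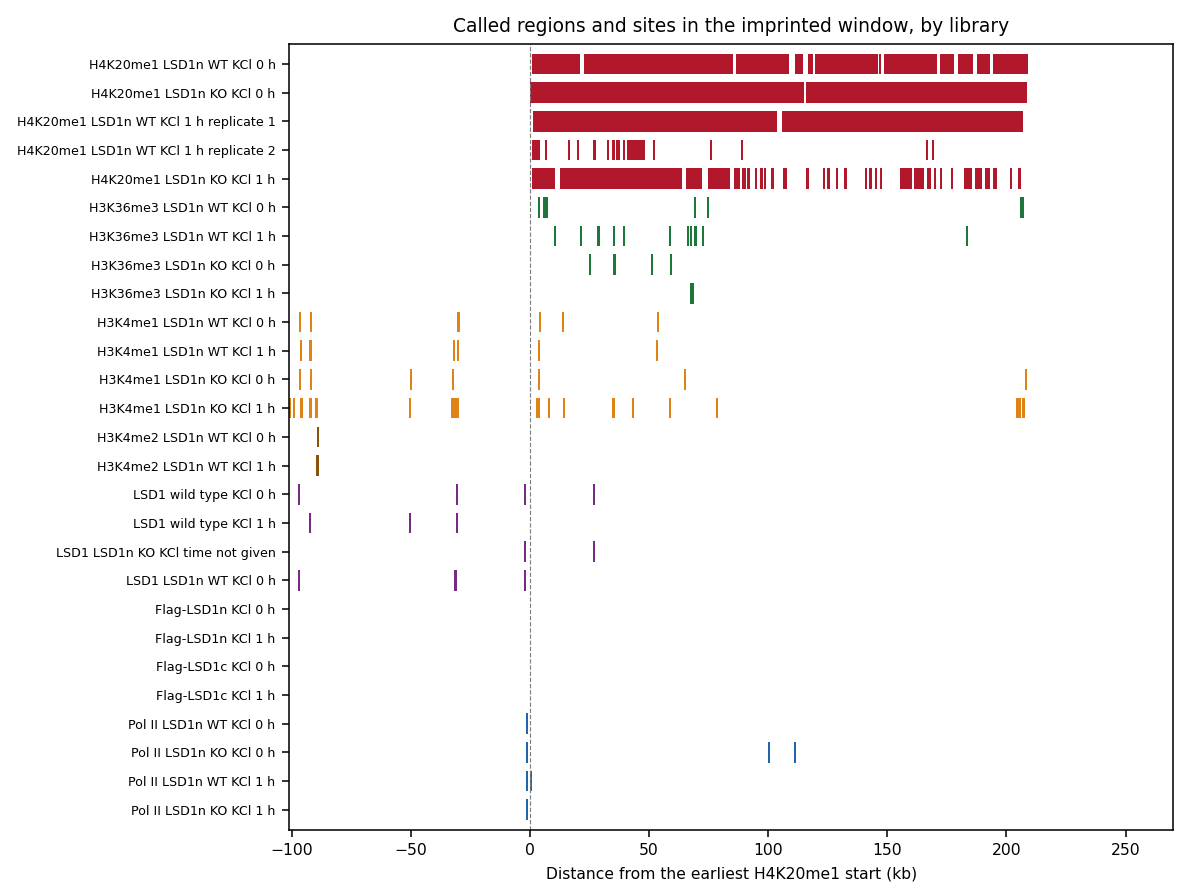
Each row is 1 library and each bar a called region or site, placed by its distance in kb from the earliest H4K20me1 start (dashed line); the narrowest are drawn at a fixed minimum width. The H4K20me1 rows start together at the dashed line and, but for WT replicate 2 at 1 h, end near 209.067 kb; Pol II has a site just before the line in all 4 rows, and the 4 Flag rows are empty.

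Within their own span, the regions filled 92.8% in WT at 0 h, 99.5% in KO at 0 h and 98.9% in WT replicate 1 at 1 h. They filled 56.7% in KO at 1 h and 11.9% in WT replicate 2. With gaps of up to 5 kb joined, WT and KO at 0 h and WT replicate 1 at 1 h each had 1 domain here, of 208.057, 208.632 and 205.669 kb. By length these ranked 4 of 11773, 14 of 14227 and 7 of 11650 joined domains in their lists. In KO at 1 h the joined regions made 6 domains, the longest of 106.99 kb and ranked 7 of 5092. In WT replicate 2 they made 7, the longest of 19.845 kb and ranked 34 of 1970. The widest single region of KO at 0 h was 114.865 kb (110780514 to 110895378), that of WT at 0 h 62.887 kb (110803072 to 110865958), that of KO at 1 h 42.579 kb (110793050 to 110835628) and that of WT replicate 2 7.593 kb (110821089 to 110828681).

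The regions of the libraries with less cover lay within the domain. Of the cover in KO at 1 h, 99.9% lay within that of KO at 0 h. Of the cover in WT replicate 2, between 94.2% and 100% lay within each of the other 4 lists. Lists that fill 92.8% to 99.5% of their span make such shares high by construction. The 94.2% is within KO at 1 h, which covered 94.3% of the first 52.266 kb, where WT replicate 2 had 18.095 kb. All 5 lists shared 18.768 kb.

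The lower cover of KO and of WT replicate 2 at 1 h was not even along the domain. The domain was cut into 4 equal parts, numbered from the edge next to the Pol II site. KO at 1 h had 94.3%, 67.4%, 17.5% and 43.2% of these parts covered. In KO at rest the parts had 100%, 100%, 98.0% and 99.2%. WT replicate 2 at 1 h had 34.6%, 1.92%, 0% and 1.92%, while replicate 1 had 97.8%, 98.4%, 97.2% and 95.7%. WT at rest had 94.9%, 98.1%, 87.1% and 89.1%. The first part was thus the best covered in both thin libraries and the third the least, and the third was also the lowest in WT at rest. Both thin libraries share a title prefix, and 2.98% (KO) and 0.881% (WT replicate 2) of their tags lay in regions. The part of prefix and enrichment in this pattern was not tested.

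**Figure D2:**
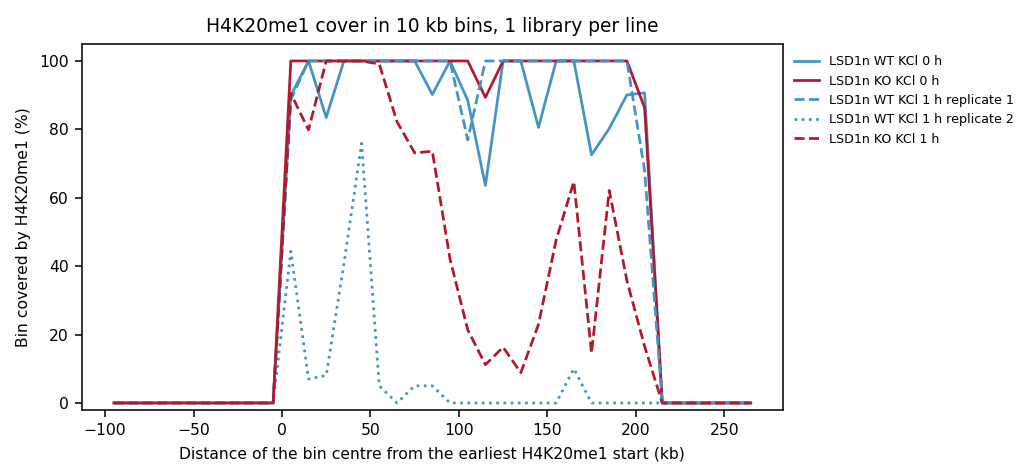
Percent of each 10 kb bin covered by H4K20me1 (vertical axis) against the distance of the bin's centre from the earliest start in kb (horizontal axis), 1 line per library. KO at 1 h (red, dashed) stays near the resting lines over the first part of the domain (94.3% covered) and then drops, and WT replicate 2 (blue, dotted) has its highest bin in that first part.

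Between genotypes at rest, KO cover was 1.08-fold that of WT here (log2 0.11), a difference of 14.589 kb. The whole KO list covered 1.88-fold more than WT (log2 0.91), and the median log2 ratio over equal windows was 1.06. Divided by the cover of the whole list, the ratio here was -0.80. Equal windows are the 7127 non-overlapping stretches of 370 kb along the genome, and those with at least 5 kb of cover in either library entered each comparison. At rest 54.7% of 2527 such windows were at least 2-fold higher in KO, and this window was not among them. By cover this window ranked 2 in the WT list, at 52.2%. The span between its first and last H4K20me1 regions was 92.8% covered in WT. Whether this bears on the ratio was not tested. Among the 24 windows with at least 30% cover in WT at 0 h, a group looked at after the values were seen, the KO to WT ratio had a median of 1.34-fold (1.00 to 1.67), and this window had the third lowest. The share of tags in H4K20me1 regions, over the whole libraries, was 19.6% in KO and 10.5% in WT at rest, and its part in these ratios was not tested.

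After 1 h the genotype comparison had no fixed direction. KO covered 116.262 kb, against 203.36 and 20.099 kb in WT, and so lay between both WT libraries. Against their mean the log2 ratio was 0.06, against replicate 1 it was -0.81 and against replicate 2 it was 2.53. The SD of log2 cover between both WT libraries was 2.36 (n = 2), a 10.1-fold gap, which was larger than the ratio against their mean. Their whole lists differed too: replicate 1 covered 57.5 Mb and replicate 2 3.08 Mb, with 10.2% and 0.881% of tags in regions. The part of this enrichment in the gap here was not tested. Replicate 2 shares its title prefix with the KO library, and replicate 1 has another. In the whole lists the log2 ratio against the mean was -1.32. Of 1571 windows, 0.446% were at least 2-fold higher in KO; the locus was chosen on 1 of these lists, so nothing is read from that share here.

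KCl time was compared within each genotype. In KO the cover fell from 207.566 kb at rest to 116.262 kb at 1 h, by 0.84 on the log2 scale. The whole KO list dropped far more, by 2.95, from 93.5 to 12.1 Mb, and the median window by 3.53. Divided by the cover of the whole list, the ratio here was 2.12, in the other direction. At least 2-fold lower cover was found in 97.4% of 2526 windows, and this window was not among them. It kept 56.0% of its resting cover and ranked 41 by the share kept among the 2524 windows with 5 kb at rest. The median of these windows was 5.29%. The locus was chosen for a wide region in a WT list at 1 h, so this share and rank are a description. Among the 14 windows with at least 50% cover in KO at rest, a group looked at after the values were seen, 12 were at least 2-fold lower, the median kept 14.7%, and this window kept the second most. The KO libraries at 0 h and 1 h carry different title prefixes and had 19.6% and 2.98% of their tags in regions, so time, prefix and enrichment cannot be told apart.

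In WT the 1 h libraries again lay on both sides of any answer. The log2 ratio of 1 h to 0 h was 0.08 with replicate 1, -3.26 with replicate 2 and -0.79 with their mean, and -0.72 in the whole lists. Divided by the cover of the whole list, the ratio with the mean was 0.38. At least 2-fold lower cover was found in 27.9% of 1971 windows, not here. That contrast holds the list the locus was chosen on. The WT library at 0 h and both WT libraries at 1 h all carry different title prefixes. Tags in regions were 10.5% at 0 h, and 10.2% and 0.881% at 1 h (replicates 1 and 2). Time, prefix and enrichment therefore cannot be told apart in WT either.

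**Figure D3:**
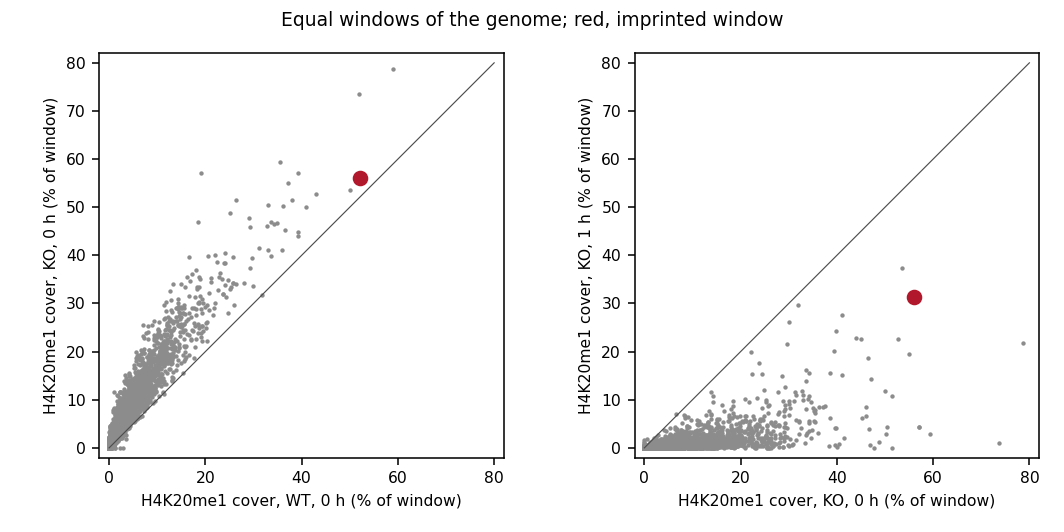
Percent of each window of 370 kb covered by H4K20me1: KO against WT at 0 h (left) and KO at 1 h against KO at 0 h (right). Each grey point is 1 window, the red point is the imprinted window (52.2% and 56.1% on the left, 56.1% and 31.4% on the right) and the line marks equal cover; the red point is close to the line on the left and above nearly all points on the right.

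H4K20me1 cover, for which the window was chosen, is given here against the genome as a description. It was 20.9 times its share of the genome in WT at 0 h, 12.0 times in KO at 0 h, 19.1 and 35.3 times in WT at 1 h, and 52.0 times in KO at 1 h, for the genome size of 2000000000 bp in the file headers. By cover the window ranked 2, 6, 3, 13 and 2 of 7127 in these lists. H3K36me3 was 2.44 to 5.70 times its share of the genome. H3K4me1 was 0.443 to 0.718 times its share in 3 libraries and 1.16 times in KO at 1 h, and H3K4me2 0.113 and 0.187 times.

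**Figure D4:**
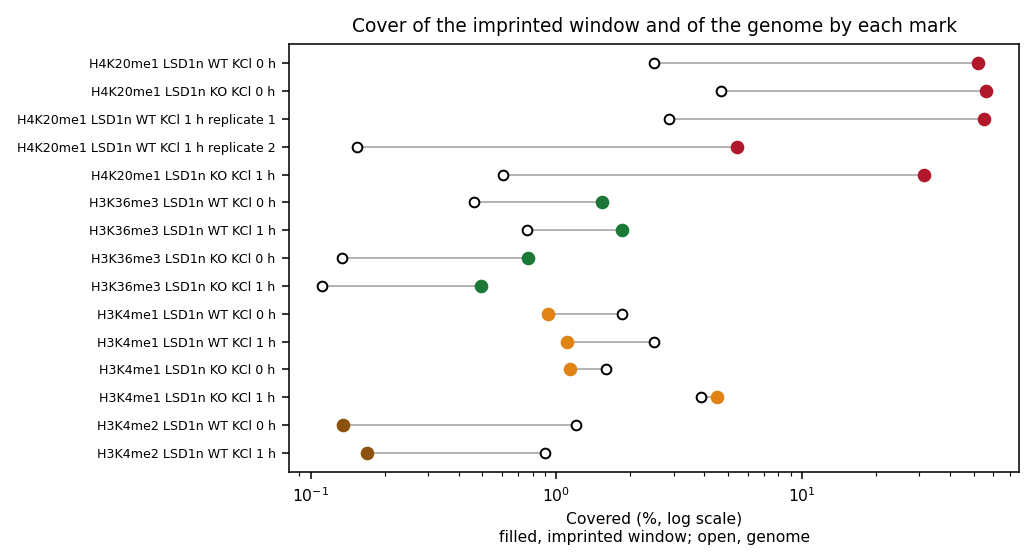
Percent covered, on a log axis, in the imprinted window (filled) and in the genome (open) for the 15 histone libraries, 1 per row. The filled point lies to the right of the open one for all H4K20me1 and H3K36me3 libraries and to its left for H3K4me2 and for all H3K4me1 libraries but KO at 1 h.

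H3K36me3, a mark deposited along gene bodies by a methyltransferase that travels with elongating polymerase, was found only inside the H4K20me1 domain in these 4 lists: all 21 of its regions in the window overlapped an H4K20me1 region, against 42.1% of 35846 in the genome. The window was chosen for H4K20me1, whose lists together covered 56.5% of it, so the genome share is not a like background. It covered 5.669 kb in WT at 0 h (5 regions), 6.873 kb in WT at 1 h (11 regions), 2.838 kb in KO at 0 h (4 regions) and 1.827 kb in KO at 1 h (1 region). Both WT libraries were higher than both KO libraries. In KO at 0 h the log2 ratio to WT was -0.998, just short of 2-fold, where 91.5% of 568 windows were at least 2-fold lower. At 1 h it was -1.91, where 98.8% of 920 windows were at least 2-fold lower. At 1 h this window was thus lower as nearly all others were, and the whole KO lists were lower still at both times, with log2 ratios of -1.79 and -2.77. Divided by the cover of the whole list, the ratios here turned to 0.79 and 0.86, and with peaks wider than 1 kb alone the 1 h ratio was 0.36. Beside this, 0.834% and 0.644% of tags lay in H3K36me3 regions in KO, against 1.99% and 3.24% in WT, and the part of this difference in the ratios was not tested.

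With KCl, H3K36me3 cover went up by 0.28 on the log2 scale in WT (0.72 in the whole list) and fell by 0.64 in KO (0.27 in the whole list). In WT 40.0% of 957 windows were at least 2-fold higher, not this one. The KO value rests on 4 regions against 1. With peaks wider than 1 kb alone both directions turned, to -1.46 in WT and 0.45 in KO. Divided by the cover of the whole list, the WT ratio was -0.44 and the KO ratio -0.37.

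The H3K36me3 regions seldom recurred at the same place. With regions of different lists within 1 kb of each other counted as 1 position, they took up 15 separate positions, of which 12 were called in 1 list and none in all 4. The position found in most lists, 3 of 4, ran from 110846609 to 110850345, 66.1 to 69.8 kb into the domain, and no base of it was in more than 2 lists. It held the only region of KO at 1 h (110847666 to 110849492, 1.827 kb) and was not called in KO at 0 h. The widest region of WT at 0 h (110786133 to 110788093, 1.961 kb) lay 5.62 kb inside the domain, and another of 1.941 kb lay near its far end (110986055 to 110987995). The widest of WT at 1 h was 1.419 kb (110808668 to 110810086) and that of KO at 0 h 1.335 kb (110815379 to 110816713). No H3K36me3 was called in the third of the 4 parts of the domain in any of the 4 lists.

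H3K4me1, a mark of enhancers, was on both sides of the domain's first edge. Its cover was 3.41 kb in WT at 0 h (6 regions), 4.102 kb in WT at 1 h (6 regions), 4.219 kb in KO at 0 h (7 regions) and 16.694 kb in KO at 1 h (16 regions). KO at 1 h stood above the other 3 libraries, which were close together. Its log2 ratio to WT at 1 h was 2.02 (0.64 in the whole lists), where 32.0% of 3658 windows were at least 2-fold higher. Its log2 ratio to KO at 0 h was 1.98 (1.29 in the whole lists), where 81.0% of 3628 windows were at least 2-fold higher. The KO library at 1 h was also the deepest of the 27 libraries used, with 34859557 tags against 22970480 to 23973912 in the other H3K4me1 libraries, and 12.3% of tags in regions against 5.89% to 9.33%; their part in the result was not tested. The other comparisons were smaller, with a log2 ratio of 0.31 for KO to WT at rest and 0.27 for 1 h to 0 h in WT. Both turned with peaks within 5 kb merged, to -0.45 and -0.39, and the latter was -0.18 when divided by the cover of the whole list.

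H3K4me1 took up 17 positions by the same count, of which 9 were called in 1 library and 4 in all 4 libraries. Before the domain lay 3 of these, at 110683560 to 110685228, 110687728 to 110689166 and 110747487 to 110750876, and 1 inside it at 110783233 to 110784928, 2.72 kb from the edge. The 4 libraries shared bases at 3 of these positions, and at 110747487 to 110750876 at most 3 libraries did. Near the far end, KO at 1 h had regions at 110984472 to 110986812 and 110987277 to 110988055, and KO at 0 h had one at 110988376 to 110988876 that shares no base with them. Neither WT library had one there. Of the 35 H3K4me1 regions of the window, 17 overlapped H4K20me1 (48.6%). The share in the genome was 29.5% of 178186, but the H4K20me1 lists together covered 56.5% of this window. H3K4me2, measured in WT alone, had 1 region at each time at the same place before the domain (110691053 to 110691827), 0.501 kb wide at 0 h and 0.625 kb at 1 h.

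At 5 positions 3 marks were called on the same bases, each in at least 1 list, in each case H4K20me1, H3K36me3 and H3K4me1. The first, 110784119 to 110784619, 3.61 kb inside the domain, was touched by regions of 10 of the 15 histone lists: all 5 of H4K20me1, all 4 of H3K4me1 and H3K36me3 of WT at 0 h. The second, 110815329 to 110816192, was in 8 lists and the third, 110839242 to 110839554, in 7. The last pair, 110986055 to 110986812 in 6 lists and 110987277 to 110987995 in 5, lay at the far end of the domain. Measured from the earliest H4K20me1 start, these 5 positions began at 3.61, 34.8, 58.7, 205.5 and 206.8 kb, and none was in the middle of the domain.

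Pol II, the polymerase that transcribes these RNAs, had 1 position in all 4 lists, 110779109 to 110779380. It ended 1133 bp before the earliest H4K20me1 start and 2259 bp before the latest of the 5 first starts, and no histone mark of the 15 lists was called on it or within 1 kb of it. The library labelled WT at 0 h had this site alone, as did the library labelled KO at 1 h. The library labelled WT at 1 h had a second site at 110780953 to 110781153, close inside the earliest H4K20me1 start. That start is of KO at 0 h, the only H4K20me1 list to overlap this site. Both WT lists at 1 h start after it (110781640 and 110781352). The library labelled KO at 0 h had 2 more at 110880734 to 110880934 and 110891620 to 110891820, 100 and 111 kb into the domain, where Pol II was called in no other library.

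The numbers of Pol II sites were thus 1, 3, 2 and 1 in the libraries labelled WT 0 h, KO 0 h, WT 1 h and KO 1 h. The log2 ratio of KO to WT was 1.58 at 0 h (95% exact interval -2.05 to 7.30) and -1 at 1 h (-6.88 to 3.26). That of 1 h to 0 h was 1.00 in WT (-3.26 to 6.88) and -1.58 in KO (-7.30 to 2.05). The intervals, which cover counting error only, include no difference in each case. Names stored inside the 4 Pol II lists give the other genotype than the sample labels do, and each of these 4 ratios changes direction if those names are used. Of the 7 sites, 3 overlapped H4K20me1 regions of any list (42.9%), the second site of WT at 1 h only that of KO at 0 h. The share in the genome was 20.1% of 58048, but the H4K20me1 lists together covered 56.5% of this window.

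LSD1, read with an antibody to the protein, was called at 6 positions, 5 of them before the domain. Of its 12 sites, 2 overlapped H4K20me1 regions (16.7%). The share in the genome was 19.01% of 68229, and the H4K20me1 lists together covered 56.5% of this window. Wild type neurons had 4 sites at 0 h and 3 at 1 h, LSD1n WT at 0 h had 3 and LSD1n KO had 2. A site at 110778316 to 110778569 was called in 3 of 4 lists, LSD1n KO included, and not in wild type at 1 h. It ended 539 bp before the Pol II position and 1944 bp before the earliest H4K20me1 start. A site at 110749207 to 110749890 had sites of 3 lists and none of LSD1n KO, and it lay inside the H3K4me1 position at 110747487 to 110750876. The site of LSD1n WT there shared no base with the other 2. The site inside the domain, 110807209 to 110807411, was called in wild type at 0 h and in LSD1n KO. All 5 H4K20me1 lists overlapped it, WT replicate 2 at 1 h only in part (region 110807353 to 110807853).

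The LSD1 positions farther out were 110683544 to 110683766 (2 lists), 110688226 to 110688426 and 110730010 to 110730210 (both in wild type at 1 h alone). The 4 LSD1 positions farthest before the domain each overlapped an H3K4me1 region of at least 1 library, and the pair closest to the domain or in it overlapped none. At 110730010 to 110730210 and 110749207 to 110749890 the only overlapping H3K4me1 library was KO at 1 h, the deepest. The LSD1 sites there came from wild type or LSD1n WT lists, and no WT H3K4me1 region overlapped them. The log2 ratio of LSD1n KO to LSD1n WT was -0.58 (95% exact interval -4.17 to 2.54) with the KCl time of the KO library not given, and that of 1 h to 0 h in wild type was -0.42 (-3.19 to 2.15). Neither interval leaves out equal numbers.

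Neither tagged form had a site here. Flag-LSD1n and Flag-LSD1c each had 0 sites in the window at 0 h and at 1 h, from lists of 940, 4438, 3922 and 5480 sites. An even spread over the genome would put 0.174, 0.821, 0.726 and 1.01 sites in a window of this length. A count of 0 allows up to 3 sites, which is 0.319%, 0.0676%, 0.0765% and 0.0547% of these lists. With so few sites expected, the count neither shows nor excludes binding of the tagged forms here. No peak of any of the 27 lists lay in the 60.42 kb after the domain.

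By percent covered in the 15 histone lists, the 3 equal windows most like this one were chr11:103970001-104340000, chr3:126540001-126910000 and chr11:29970001-30340000. Their mean absolute differences from it were 3.49, 4.66 and 4.82 percentage points, against a median of 14.0 over the other 7126 windows. The first had 43.1% H4K20me1 cover in WT and 52.8% in KO at 0 h and 22.7% in KO at 1 h. It had more H3K4me1, 3.21% in WT at 0 h against 0.922% here, and more H3K4me2, 3.19% against 0.135%.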

How the data were processed

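Chromatin immunoprecipitation libraries of 27 samples were used, 1 deposited list of peaks each. Build mm9 and the tools Bowtie and HOMER, with no versions, come from the submitters' processing notes. Histone peaks had a size of 500 bp and were stitched into regions (minimum distance 1250 bp), per the file headers. Pol II, LSD1 and Flag sites had a fixed size of 200 bp and needed 4-fold the local tag density. The false discovery rate was 0.001. The deposited unit is genomic positions in bp, so wide regions depend on stitching and on enrichment, and tags within the window are not known. The headers name no control library.

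Cover in the window was the length of the union of the regions; an H3K4me1 region that crosses its start was cut there. Log2 ratios of cover use the mean of both libraries for H4K20me1 WT at 1 h. Whether these are separate cultures is not stated, so their spread may be technical. Numbers of sites have exact conditional Poisson intervals at 95%. Python 3.11.15, numpy 2.4.6, scipy 1.17.1 and matplotlib 3.10.9 were used, and the calculation of cover was tested on simulated data. Named positions are the widest H4K20me1 region of each library, every peak or the widest of each other list, and positions with 3 targets; others were chosen after their values were seen. The window, members and lists were chosen with earlier results of these data known. Groups follow the labels. Alternatives were other folds, tiles moved along the genome, only wide peaks, joined peaks, only peaks wholly inside the window, a wider window, other overlaps, a mean of log2 cover, scaling by the whole list and leaving out each of the 2 replicates.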

Additional observations from a re-analysis of the deposited data

Results flagged for a closer look

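The change of H3K36me3 cover with KCl went up in WT (log2 0.28) and down in KO (-0.64), and the KO change minus the WT change was -0.91. With peaks wider than 1 kb alone both directions turned (-1.46 in WT and 0.45 in KO), and divided by the cover of the whole list both were negative (-0.44 and -0.37). The KCl change in the number of Pol II sites went up in the libraries labelled WT (1.00) and down in those labelled KO (-1.58), a difference of -2.58. The genotype change in Pol II sites went the other way at 1 h than at 0 h, also a difference of -2.58, since both differences are made from the same 4 counts. All 4 Pol II directions turn if the genotype is taken from the names inside the lists. Each of the 3 was listed because the directions were opposite in both groups, with 1 library per group. None of these differences was tested.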

How the results depend on the processing

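Of 133 alternative values for 38 results, 112 differed from the reported value by less than the spread between replicates, the counting interval or, for shares and counts, 1.5-fold. Another 15 moved by more, and 6 alternatives to values of at least 2-fold changed direction. The sign was opposite in 19, over 14 results, and 12 of these 19 were among the 112, since that spread and those intervals are wide. Only H4K20me1 in WT at 1 h has replicates (SD of log2 cover 2.36), so the other marks have no replicate spread of their own. Leaving out a WT replicate gave KO over WT for H4K20me1 at 1 h a range of -0.81 to 2.53, and 1 h over 0 h in WT a range of -3.26 to 0.076. Divided by the cover of the whole list, the H4K20me1 log2 ratio of 1 h to 0 h in KO was 2.12 in place of -0.84, and the H3K36me3 ratio of KO to WT at 1 h was 0.86 in place of -1.91. In the same scaling the H4K20me1 ratios of KO to WT at 0 h and of 1 h to 0 h in WT were -0.80 and 0.38, the H3K36me3 ratio of KO to WT at 0 h was 0.79 and with KCl in WT -0.44, and the H3K4me1 ratio with KCl in WT was -0.18. With peaks within 5 kb merged, H3K4me1 gave -0.45 for KO to WT at 0 h and -0.39 with KCl in WT. With peaks wider than 1 kb alone, the H3K36me3 ratios with KCl were -1.46 in WT and 0.45 in KO, H4K20me1 KO to WT at 1 h was -0.041, H3K36me3 KO to WT at 1 h was 0.36, and the H3K4me1 ratio of 1 h to 0 h in KO was 3.46. With the Pol II genotype as named inside the lists, an alternative chosen after seeing the data, the ratios were -1.58 and 1.00 for KO to WT at 0 h and 1 h, and -1.58 and 1.00 for 1 h to 0 h in WT and KO. At 1.5-fold and 3-fold, the share of windows past the fold was 82.2% and 20.8% for H4K20me1 KO to WT at 0 h, 1.08% and 0.191% at 1 h, and 67.3% and 7.20% for 1 h to 0 h in WT. It was 65.9% and 15.3% for H3K36me3 with KCl in WT, 59.3% and 11.8% for H3K4me1 KO to WT at 1 h, and 38.0% at 3-fold for H3K4me1 with KCl in KO. Apart from the scaling, the width and the fold, which act by their own construction, the cause was not tested. The Flag lists had no site here and gave no ratio. The planned count over other imprinted genes was not run, since it needs an annotation on mm9. No paired analysis was possible because all groups but 1 hold 1 library, and no test was run. Tags within the window are not known, so the thin lists show only what was called.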
